A study of Mus musculus with 24 samples.

Results

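Peroxiredoxins, the thioredoxin and glutathione systems and the hydrolase of oxidised nucleotides are described here through 10 genes in single mouse oocytes. They are Prdx1, Prdx2, Prdx3, Prdx5, Prdx6, Txn1, Gsr, Gclc, Gclm and Nudt1, of 25965 entries in the deposited table, and each was matched by its symbol. Nudt1 was chosen by its lower level in the transgenic oocytes, so its difference between the genotypes is a description with no test. The other genes were chosen by function, with earlier results of these oocytes known. Levels are in RPM, reads of the gene scaled to a library of 1000000 reads. All 10 passed the filter for testing, which asked for an average of 1 RPM or more across oocytes, as did 10987 entries in all.

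The study compared eggs of mice with and without extra anti-Müllerian hormone (AMH). The transgenic females were hemizygous for Thy1.2-AMH (Thy1.2-AMHTg/0), in which the Thy1.2 promoter, best known for driving expression in neurons, drives AMH. The wild-type females were Thy1.2-AMH0/0. All were adults that ovulated naturally, and the labels state no age in days or weeks. From 4 females per genotype, 10 transgenic and 11 wild-type oocytes are described, with 2 or 3 sisters per female. Every one of the 4 sequencing lanes paired a transgenic with a wild-type female. A control RNA from the amplification kit gave 1 further library.

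Peroxiredoxins reduce hydrogen peroxide with a reactive cysteine. The typical members, Prdx1 and Prdx2 in the cytosol and Prdx3 in mitochondria, are then reduced again by thioredoxin (Txn1 in the cytosol). Prdx5 forms its disulfide within 1 chain, and Prdx6 uses glutathione. Glutamate-cysteine ligase joins glutamate and cysteine in the first step of glutathione synthesis, with Gclc as the catalytic and Gclm as the modifier subunit. Oxidised glutathione is returned to its reduced form by Gsr. Nudt1 (also MTH1) removes oxidised purine nucleotides before they enter DNA. Eggs are known for a large store of glutathione, which is used when the sperm nucleus decondenses.

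The sequences that set these genes apart are the coding runs at their reactive sites, read from GENCODE M21 (GRCm38) on the coding strand, 5′ to 3′. For the peroxiredoxins the capitals mark the codon of the peroxidatic cysteine, the residue that meets the peroxide. Prdx1 lies at chr4:116691802-116691825 (+), Prdx2 at chr8:84970462-84970485 (+), Prdx5 at chr19:6907988-6908011 (-) and Prdx6 at chr1:161247368-161247391 (-). The Prdx3 run at chr19:60870127-60871430 (-) is joined across an intron.
Prdx1: cctcttgactttacttttgtgTGT
Prdx2: ccactggacttcacttttgttTGC
Prdx3: cctttggatttcacatttgtgTGT
Prdx5: cctggggcatttacacctggcTGT
Prdx6: ccacgggactttaccccagtgTGC
Over these 24 bases Prdx1 shared 19 with Prdx2, 19 with Prdx3, 16 with Prdx6 and 14 with Prdx5. Over the whole coding sequences the longest identical run between any pair of the 5 was 16 bases, between Prdx5 and Prdx6, and between Prdx1 and Prdx2 it was 14 bases. Among these 5 coding sequences, a read that covers a longer stretch matches 1 only. Copies elsewhere in the genome, such as the processed pseudogenes Prdx2-rs3 and Prdx6-ps2, were not compared.

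The enzymes that restore the peroxiredoxins and glutathione carry a pair of cysteines, whose codons are in capitals. The Txn1 run lies at chr4:57951821-57951835 (-), and the Gsr run at chr8:33653768-33669167 (+) is joined across an intron. The Nudt1 run is its Nudix box, the signature of this hydrolase family, at chr5:140334576-140335337 (+), also joined across an intron. In it the capitals mark the glutamate codons, some of which serve to bind the metal ion.
Txn1: tggTGTggacctTGC
Gsr: ggtggcactTGCgtgaatgttggaTGT
Nudt1: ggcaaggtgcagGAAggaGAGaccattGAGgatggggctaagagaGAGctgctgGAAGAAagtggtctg
These runs identify the genes. The deposited values are gene totals, so the sequences read in the oocytes were not examined.

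Among the peroxiredoxin transcripts of the oocytes, those of the cytosolic Prdx1 and Prdx2 stood highest, and no protein was measured. Per kilobase of the longest principal transcript, Prdx1 stood at 513 ± 59.6 RPM per kb (SD, n = 8 females) and Prdx2 at 336 ± 78.4. Prdx1 lay above 99.0% and Prdx2 above 98.2% of the 10886 tested genes with a length. The next level was far lower, with Prdx5, found in mitochondria, peroxisomes and the cytosol, at 59.6 ± 7.04 RPM per kb. Txn1 followed at 27.0 ± 6.88 and Gclm at 13.1 ± 3.68 RPM per kb.

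The other 5 genes stood lower per kilobase. Prdx6 was at 7.63 ± 2.39, Nudt1 at 7.43 ± 2.86 and Gclc at 3.05 ± 0.862 RPM per kb. The lowest were mitochondrial Prdx3 at 2.14 ± 1.65 and Gsr at 1.51 ± 0.965 RPM per kb, above 29.6% and 23.0% of those genes. Along this order the ranges of the females overlapped between every pair of neighbours except Prdx2 with Prdx5 and Prdx5 with Txn1. Which isoform the oocytes used is not known. With the shortest principal transcript, which is 1002 bases for Gclm in place of 5589, Gclm moved up to place 3 and Prdx5 and Txn1 moved to places 4 and 5.

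**Figure D1:**
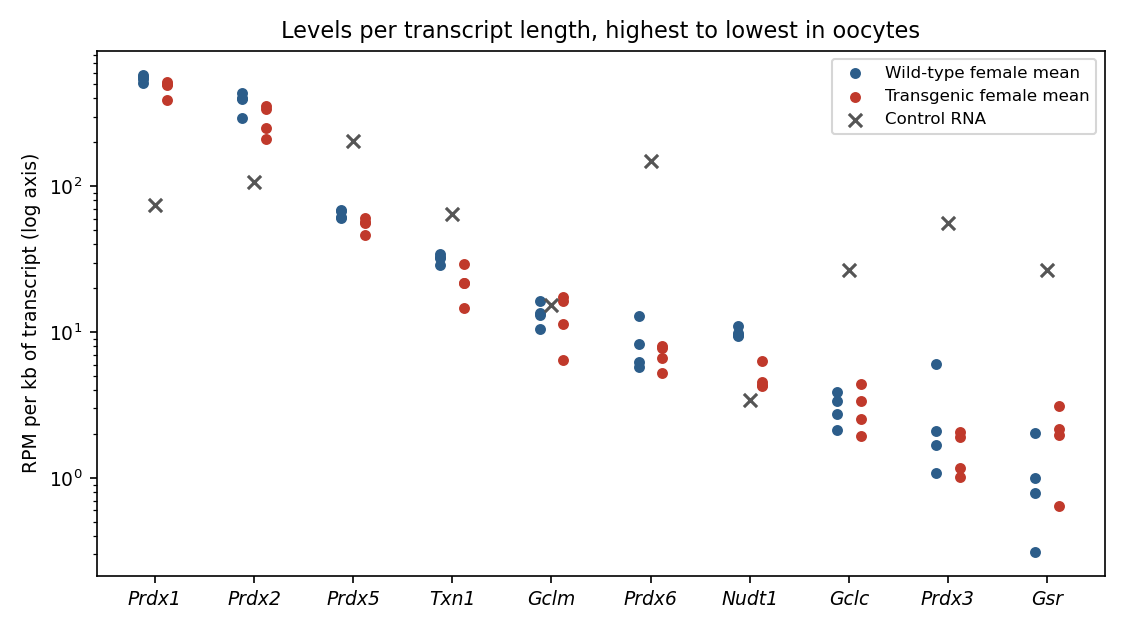
Level of each gene in RPM per kb of the longest principal transcript (log axis), with 1 point per female mean (blue wild type, red transgenic, n = 4 each) and a cross for the 1 control RNA library. Prdx1 and Prdx2 stood highest in the oocytes, where Prdx3 and Gsr were lowest, and the control RNA gave another order.

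The kit control RNA, a library with 6070 RPM of the myelin gene Mbp, had another make-up. Prdx6 was at 356 RPM there (95% Poisson interval 348 to 363), against 18.2 ± 5.71 RPM in the oocytes, a ratio of 19.5. Prdx3 was at 82.2 RPM in the control RNA (78.4 to 86.0), 26.0 times its oocyte level, and Gsr at 71.1 RPM (67.6 to 74.7), 17.6 times its oocyte level. In the opposite direction, Prdx1 was 6.86 times and Prdx2 3.12 times as high in the oocytes. Nudt1 was at 3.27 RPM in the control RNA (72 reads, 2.56 to 4.11 RPM), and the mean of the oocytes was 2.17 times as high. The control is 1 library, so these are values with no test, and the intervals cover counting error only because amplified reads are not independent molecules.

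As shares of the summed level per kilobase of these 5 peroxiredoxins, Prdx1 took 56.3% ± 3.47 (SD, n = 8 females) and Prdx2 36.1% ± 3.98 in the oocytes. Prdx5 took 6.55% ± 0.429, Prdx6 0.851% ± 0.305 and Prdx3 0.234% ± 0.179. In the control RNA the order was Prdx5 at 34.4%, Prdx6 at 25.3%, Prdx2 at 18.2%, Prdx1 at 12.7% and Prdx3 at 9.43%. Every oocyte had more Prdx1 than Prdx2 per kilobase, with a ratio from 1.04 to 2.17, against 0.696 in the control RNA. These shares and ratios rest on the longest principal transcripts, of 2294 bases for Prdx1 and 1612 for Prdx2. With the shortest, of 877 and 1175 bases, the oocytes had 1343 RPM per kb of Prdx1 and 460 of Prdx2. In RPM without length the control RNA had 172 of Prdx1 and 173 of Prdx2. Which of them was ahead in the control RNA, and the order of shares there, are not settled. The sixth peroxiredoxin of the mouse, Prdx4 of the endoplasmic reticulum, was under the filter, with 0.108 ± 0.0872 RPM in the transgenic females and 0.282 ± 0.220 RPM in the wild-type females (SD, n = 4 each).

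The subunits of glutamate-cysteine ligase were also unequal. The ratio of Gclm to Gclc per kilobase was 2.39 at the lowest, 3.24 at the median and 14.0 at the highest among the transgenic oocytes. Among the wild-type oocytes it was 2.11, 4.79 and 8.37, and the groups overlapped. In the control RNA the ratio was 0.579. These ratios rest on the Gclm length. With the shortest principal transcript the medians were 18.1 and 26.7 and the control RNA stood at 3.23, so which subunit was ahead in the control is not settled.

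**Figure D2:**
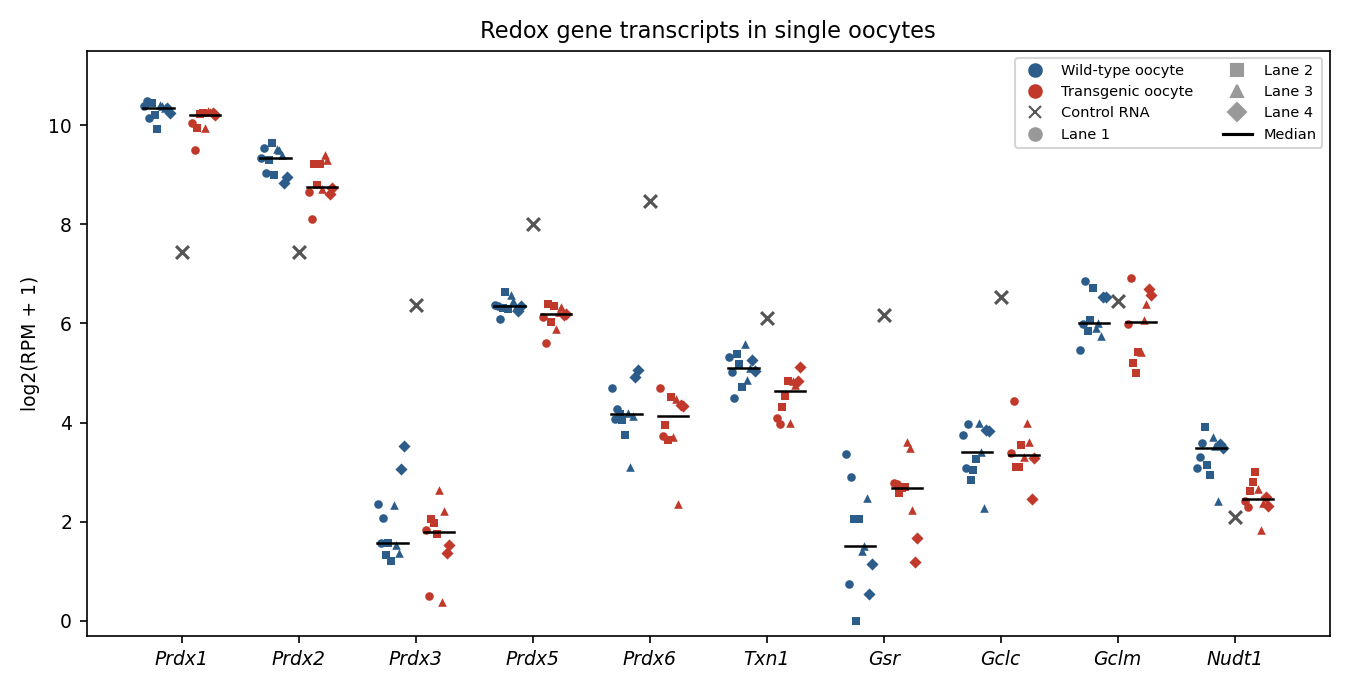
log2(RPM + 1) of the 10 genes in each of 11 wild-type (blue) and 10 transgenic (red) oocytes, with the lane as the marker shape, a bar at the group median and a cross for the control RNA. Gsr was spread more widely than Prdx1, in which 1 transgenic oocyte lay apart at 725 RPM. For Nudt1, 9 of 11 wild-type oocytes had more than any transgenic oocyte.

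Between the genotypes no gene of the table passed the test (limma, adjusted p under 0.05 over 10987 genes, 0% called), and so none of the 9 genes other than Nudt1. At an unadjusted p under 0.05 there were 443 genes lower (4.03% of those tested) and 305 higher (2.78%) in the transgenic oocytes, and limma voom on the recovered reads also called 0. Of those 9 genes, Prdx2 and Txn1 were under that limit with a lower value and Gsr with a higher one. Since the genes were chosen with these results known, nothing is read from that count. RPM is a share of the library, so less of one transcript and more of others cannot be told apart.

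Prdx1 was at 969 RPM in the lowest, 1304 in the median and 1431 in the highest wild-type oocyte, and at 725, 1181 and 1253 RPM in the transgenic ones. The groups overlapped, and 7 of 11 wild-type oocytes lay above all transgenic ones. The means of the females were 1266 ± 67.4 RPM in wild type and 1090 ± 136 RPM in the transgenic group (SD, n = 4 each), a log2 difference of -0.23 ± 0.13 (SE; limma adjusted p = 0.764). The lane 1 pair gave -0.56 and the other lanes -0.06, -0.22 and -0.07. Leaving out the lane 1 transgenic female gave -0.13.

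Prdx2 was at 457 RPM in the lowest, 644 in the median and 799 in the highest wild-type oocyte, and at 273, 432 and 676 RPM in the transgenic ones. The groups overlapped, although 6 of 10 transgenic oocytes lay below all wild-type ones. By female the wild-type values were 636, 645, 706 and 476 RPM in lanes 1 to 4, and the transgenic values 338, 543, 576 and 407 RPM, lower in each lane. The log2 difference was -0.43 ± 0.19 (SE; limma adjusted p = 0.724; 95% interval -0.83 to -0.03). Lane 1 gave -0.92 and the other lanes -0.24, -0.32 and -0.23. Leaving out the transgenic female of lane 1 gave -0.28. Prdx2 shares 177 exon bases with Rnaseh2a on the other strand, a gene at 5.40 RPM in the oocytes against 541 RPM for Prdx2.

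Prdx5 was the only tested peroxiredoxin whose female means did not overlap, from 58.5 to 76.1 RPM in the transgenic and from 76.4 to 86.7 RPM in the wild-type group. In all, 2.64% of tested genes had transgenic means that were all lower and 1.67% had means that were all higher, and nothing is read from this single gene. Single oocytes did overlap, at 47.9, 71.6 and 83.0 RPM (lowest, median, highest) in transgenic and 66.6, 80.5 and 98.5 RPM in wild-type oocytes. The log2 difference was -0.24 ± 0.15 (SE; limma adjusted p = 0.764). Its exons share 409 bases with Trmt112 on the other strand, a methyltransferase cofactor gene at 137 RPM, and the counting is not stated to use strand, so reads in the shared bases may belong to either gene. Trmt112 differed by -0.22 ± 0.14 on the same scale.

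Prdx3 and Prdx6 were marked by 1 wild-type female. In lane 4 that female had 8.99 RPM of Prdx3, against 1.59 to 3.11 RPM in the other 3 wild-type females and at most 3.05 RPM in the transgenic females. For Prdx6 it had 30.8 RPM, against 13.8 to 19.7 RPM in the other wild-type and 12.5 to 19.2 RPM in the transgenic females. The log2 differences between the genotypes were -0.53 ± 0.37 for Prdx3 (limma adjusted p = 0.784) and -0.25 ± 0.27 for Prdx6 (0.850). Without that female they were -0.13 and -0.02. Both oocytes of that female were high in Prdx3, at 7.39 and 10.6 RPM.

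Txn1, the donor of electrons to the typical peroxiredoxins of the cytosol, was at 21.5, 33.1 and 46.8 RPM (lowest, median, highest) in wild-type oocytes. The transgenic oocytes had 14.8, 23.98 and 34.0 RPM. The groups overlapped, with 5 of 11 wild-type oocytes above all transgenic ones. By female the wild-type values ran closely together at 30.6, 33.9, 36.0 and 34.5 RPM in lanes 1 to 4. The transgenic females had 15.3, 22.9, 22.8 and 30.7 RPM, lower in each lane. The log2 difference was -0.57 ± 0.21 (SE; limma adjusted p = 0.724; 95% interval -1.02 to -0.12), and leaving out 1 female at a time it ran from -0.72 to -0.40.

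Gsr, which returns oxidised glutathione to its reduced form, went the other way. It was at 1.27, 5.43 and 11.1 RPM in transgenic oocytes (lowest, median, highest) and at 0, 1.83 and 9.31 RPM in wild-type ones, with wide overlap. The transgenic females had 5.82, 5.27, 8.35 and 1.73 RPM in lanes 1 to 4 and the wild-type females 5.48, 2.10, 2.68 and 0.835 RPM, so the transgenic value was higher in each lane. The log2 difference was 0.90 ± 0.39 (SE; limma adjusted p = 0.724; 95% interval 0.07 to 1.74). The oocyte with 0 reads was oocyte B of the wild-type female of lane 2, whose sisters had 3.17 and 3.12 RPM. With so few reads the size depended on the pseudocount, and it was 1.44 with 0.1 and 0.42 with 5 in place of 1.

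Gclc and Gclm showed no common direction. Gclc was at 3.86, 9.60 and 14.8 RPM in wild-type and 4.49, 9.12 and 20.7 RPM in transgenic oocytes, with a log2 difference of -0.01 ± 0.27 (SE; limma adjusted p = 0.995; 95% interval -0.60 to 0.57). By lane it was 0.31, 0.21, 0.41 and -0.97, so lane 4 stood against the others. Gclm was at 43.2, 63.2 and 114 RPM in wild-type and 30.8, 64.1 and 120 RPM in transgenic oocytes, with a difference of -0.12 ± 0.27 (0.928; 95% interval -0.70 to 0.47). The transgenic female of lane 2 had 36.2 RPM of Gclm against 63.7 to 98.1 RPM in the other transgenic females, and without that female the difference was 0.17. Neither direction is settled for the pair, since the intervals reach well to both sides of 0. Gclm shares 296 exon bases with Gm17494 on the other strand, at 0.0727 RPM in the oocytes. It also shares 244 with the pseudogene Gm6061 on its own strand, which has no deposited entry and could not be checked.

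Nudt1 was at 4.35 RPM in the lowest, 10.3 in the median and 13.9 in the highest wild-type oocyte, and at 2.58, 4.51 and 6.99 RPM in the transgenic ones. Of the 11 wild-type oocytes 9 lay above all transgenic ones. The exceptions were oocyte C of lane 2 at 6.71 RPM and oocyte C of lane 3 at 4.35 RPM. By female the wild-type values were 9.13, 9.48, 8.99 and 10.6 RPM in lanes 1 to 4, and the transgenic values 4.14, 6.01, 4.05 and 4.32 RPM, with no overlap. The log2(RPM + 1) difference was -0.88 ± 0.21 (SE), and -0.96, -0.53, -0.92 and -1.12 by lane. These are the values that chose the gene. In RPM the transgenic mean was 0.485 of the wild-type mean. Mrm2, the coding gene on the other strand that shares 39 exon bases with Nudt1, had 0 reads in the oocytes. Gm43338, also on the other strand, shares 128 exon bases with Nudt1 and has no deposited entry, so its reads could not be checked.

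**Figure D3:**
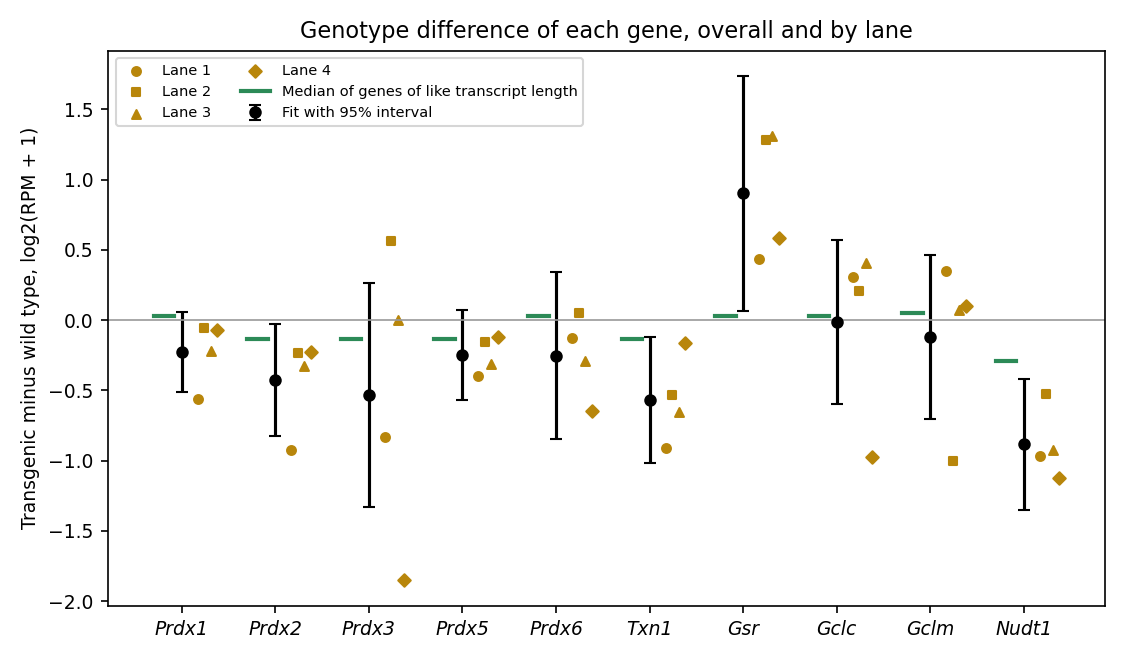
Transgenic minus wild-type difference in log2(RPM + 1) for each gene, as the limma estimate with its 95% interval (black, n = 4 females each), the 4 differences within lanes (gold) and the median of all tested genes of like transcript length (green bar). The interval of Nudt1 is a description, since its values chose it, and none of the other genes passed the adjusted test.

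Short transcripts as a class were lower in the transgenic libraries, a property looked at after the values were seen. The median log2 difference was -0.29 for 847 genes with a principal transcript under 1 kb, -0.14 for 2292 genes of 1 to 2 kb, 0.03 for 4300 genes of 2 to 4 kb and 0.05 for 3447 longer genes. By female, the median of transcripts under 2 kb minus that of longer ones was -0.118 ± 0.157 in the transgenic and 0.0858 ± 0.0334 in the wild-type group (SD, n = 4 each). It was lower in each of the 4 lanes, with an exact two-sided permutation p of 0.0286, the smallest that 70 arrangements allow, and 0.0857 after adjustment over the 3 library properties examined. From the differences of single genes it was -0.22, or -0.13 when the transgenic female of lane 1 was left out.

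Set against genes of like length, Nudt1 (954 bases) stood -0.59 from the median of its class. Txn1 stood -0.43, Prdx3 -0.39, Prdx2 -0.29, Prdx6 -0.28, Prdx1 -0.26 and Gclm -0.17 from theirs. Prdx5 was at -0.11 and Gclc at -0.04, while Gsr stood 0.87 above its class. With the shortest principal transcript of the member alone, of 877 bases for Prdx1 and 1002 for Gclm, the direction turned for both, to 0.07 for Prdx1 and 0.02 for Gclm. All other genes were still placed in classes by their longest principal transcript, so this second comparison is not of like with like. The part of transcript length in these differences was not tested.

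**Figure D4:**
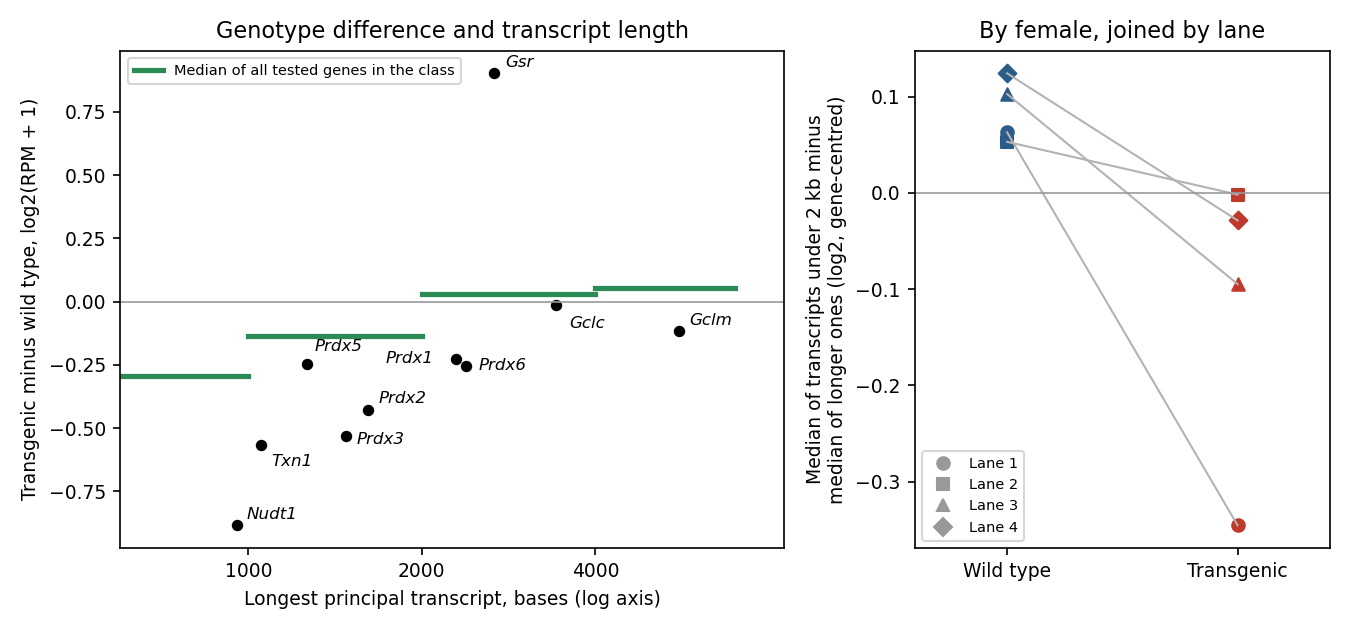
Left, the log2 difference between the genotypes against the longest principal transcript in bases (log axis), with the 10 genes as points and the median of all tested genes in each length class as a green line. Right, the median of transcripts under 2 kb minus that of longer ones for each female, joined by lane, which was lower in the transgenic female of all 4 lanes.

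Sister oocytes differed least in Prdx1 and Prdx5, each with an SD of 0.19 on the log2 scale between oocytes of 1 female. For Prdx5 9.55% of tested genes of like level had a smaller spread, for Prdx1 37.4% and for Prdx2, at 0.27, 68.5%. Gsr was the most variable at 0.83, with 86.0% of genes of like level below it. Gclm at 0.43 and Prdx6 at 0.57 were also above 86.5% and 84.2% of their like. Nudt1 had 0.40, above 22.2% of genes of like level, and the median of all tested genes was 0.41.

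Over the 21 oocytes, with the genotype means removed, the 5 highest correlations of the 45 pairs were all among Prdx1, Prdx2, Prdx5 and Txn1. Pearson's r was 0.81 between Prdx2 and Prdx5, 0.73 between Prdx1 and Txn1 and 0.63 between Prdx1 and Prdx2. With the mean of each female removed these values were 0.92, 0.70 and 0.66. Gclm was negative with each of these 4 genes, from -0.53 with Prdx2 to -0.12 with Txn1, and with female means removed it was at -0.20 with Prdx2. These are descriptions over oocytes that share females, lanes and library scaling, and carry no p. Oocyte C of the transgenic female of lane 1 had the lowest Prdx1, Prdx2, Prdx5 and Txn1 and the highest Gclm, at 120 RPM. Its median of transcripts under 2 kb minus that of longer ones was also the lowest, at -0.50. The part of this oocyte and of transcript length in the correlations was not tested.

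**Figure D5:**
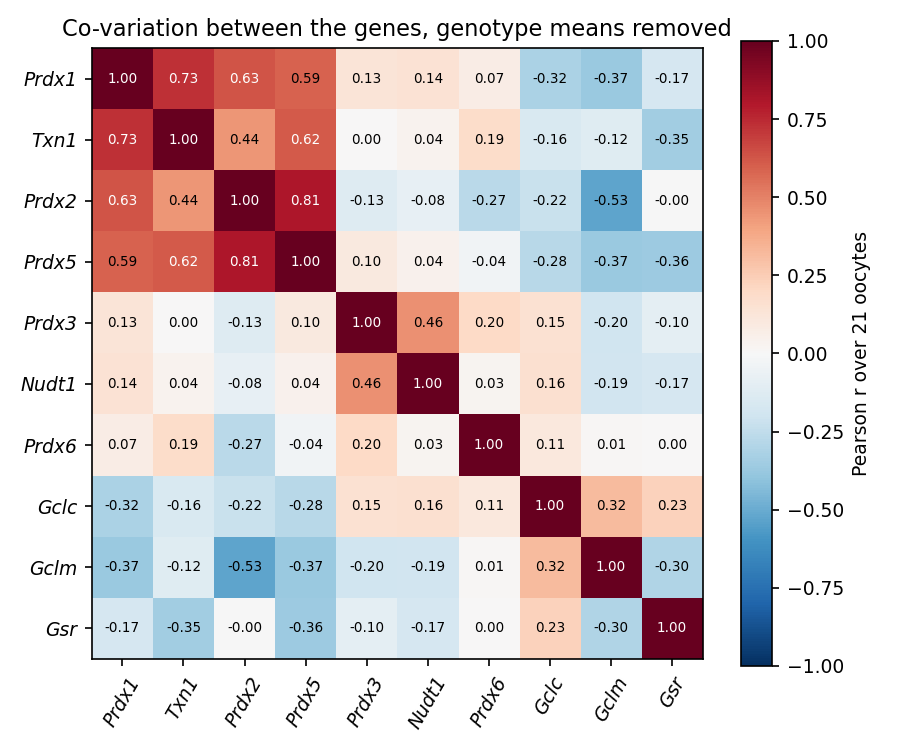
Pearson's r of log2(RPM + 1) between the 10 genes over 21 oocytes after removing each genotype mean, from -1 (blue) to 1 (red). Prdx1, Txn1, Prdx2 and Prdx5 form a block of positive values from 0.44 to 0.81, and Gclm was at -0.53 with Prdx2.

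The genes whose pattern was most like that of Prdx2 over the same 21 oocytes were Fermt2 (r = 0.93), Immp1l (0.93) and Nusap1 (0.92), at 254, 271 and 263 RPM. For Nudt1 they were Trim40 (0.76), Cntn3 (0.76) and Ccdc36 (0.70), and for Gsr they were Ttpal (0.82), Nr2c1 (0.71) and Ctage5 (0.71). These were the highest among the tested genes with an ordinary symbol, and all are descriptions.

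The wider pathway lists, chosen with earlier results known, gave 0 genes past the adjusted test. Of the 88 tested genes beside the 10, 51 were lower and 37 higher in the transgenic oocytes (median log2 -0.08), against 5733 lower and 5254 higher over all tested genes (median -0.01). Of 5 tested peroxiredoxins 5 had a lower value (median -0.25), and of 14 glutathione users 13 (median -0.26), with Gsr the exception. Of those 14, 11 have a principal transcript under 2 kb, as do 3 of the 5 peroxiredoxins, and among all tested genes 83.0% of those under 1 kb and 70.2% of those of 1 to 2 kb were lower. The part of length in these counts was not tested. Of the glutathione users, Mgst1, Gstt2 and Gstk1 averaged under 1 RPM in the transgenic females, at 0.487, 0.990 and 0.996 RPM. The wild-type females had 1.36, 1.28 and 1.51 RPM, so these genes passed the filter through the group where they were higher. Gstk1, Gsta4, Glo1, Gpx3 and Gstp1 each changed direction on leaving out at least 1 female. The smallest p among the glutathione users beside Gsr belonged to Gpx1, a glutathione peroxidase, at 22.1 ± 13.3 RPM in wild type and 12.7 ± 4.19 RPM in the transgenic group (log2 -0.77 ± 0.33; limma adjusted p = 0.724). Gpx4, the peroxidase of lipid peroxides, followed at -0.42 ± 0.24 and Mgst3, a membrane-bound transferase, at -0.28 ± 0.17. Leaving out the lane 4 wild-type female gave -0.41 for Gpx1, leaving out the lane 2 wild-type female gave -0.25 for Gpx4, and leaving out the lane 1 transgenic female gave -0.13 for Mgst3.

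Of 14 tested thioredoxin-system genes 9 were lower (median -0.14). Among the lower, Glrx2 passed the filter through the wild-type group, at 0.966 RPM in the transgenic and 1.13 RPM in the wild-type females. The 2 genes of this list with the smallest p were higher, Sesn2, a stress-induced sestrin, at 4.93 ± 1.37 against 2.80 ± 1.09 RPM (log2 0.93 ± 0.26) and the methionine sulfoxide reductase Msrb3 at 119 ± 30.0 against 66.1 ± 16.7 RPM (0.73 ± 0.22), transgenic first. Nxn, nucleoredoxin, stood at -0.59 ± 0.29. The list for glutathione synthesis and supply also holds genes that break glutathione down, among them Chac1, Chac2 and Ggt1. Of its 12 tested genes 8 were higher (median 0.10), these 3 included, with Slc1a1, a transporter of glutamate and cysteine, at 0.86 ± 0.41, Chac1 at 0.49 ± 0.30 and the aminopeptidase Lap3 at 0.26 ± 0.23. Leaving out the lane 4 wild-type female gave 0.56 for Slc1a1 and 0.13 for Lap3. Leaving out 1 female at a time, Chac1 ran from 0.31 to 0.78, and its lane 4 difference was -0.45. Chac1 averaged 1.63 RPM in the transgenic and 0.762 RPM in the wild-type females, and Gss 1.00 and 0.890 RPM. Both are among the higher genes and passed the filter through the transgenic group. None of the genes named from these 2 lists had an adjusted p below 0.05 in limma.

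Of 27 genes for oxidised nucleotides and base repair 17 were lower (median -0.07, Nudt1 included). Dctpp1, a nucleotide pyrophosphatase, stood at -0.83 ± 0.36, Nudt9, an ADP-ribose hydrolase, at -0.52 ± 0.24 and Nudt19 at -0.60 ± 0.31. Lane 4 gave -1.78 for Dctpp1 and -1.86 for Nudt19. Leaving out the lane 4 wild-type female gave -0.44 for Dctpp1, and leaving out the lane 4 transgenic female gave -0.37 for Nudt19. Ogg1, the glycosylase that removes oxidised guanine, stood at 0.02 ± 0.24, and Mutyh, which removes adenine paired with it, at -0.14 ± 0.22. Both are named outside the rule, after their values were seen. In the NRF2 list 7 genes were higher and 7 lower, led by Park7 at -0.70 ± 0.25, Keap1, which holds NRF2 in check, at 0.65 ± 0.28 and the ferritin chain Ftl1 at -0.60 ± 0.31. Leaving out the lane 4 wild-type female gave -0.25 for Ftl1, and leaving out the lane 1 transgenic female gave 0.42 for Keap1. NADPH supply had 6 of 9 higher, with Nadk at 0.38 ± 0.22, Me2 at -0.20 ± 0.16 and Taldo1 at 0.18 ± 0.14. Leaving out the lane 1 transgenic female gave 0.14 for Nadk and, in the next list, -0.23 for Sod1. Of the superoxide and catalase genes Sod1 stood at -0.41 ± 0.27, Sod2 at -0.26 ± 0.17 and Cat at 0.11 ± 0.29.

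The start regions of Prdx1 and Gclm are shown because they held the motif TGACNNNGC, the core of the antioxidant response element that NRF2 binds. RefSeq windows (GRCm38.p6) from 250 bases before to 50 after the start were found for 7 of the 10 genes, and both strands were searched. Among those 7, only Prdx1 and Gclm held the motif. The motif occurs in 12.4% of the 32851 windows, and the capitals mark it on the opposite strand, starting 133 bases before the start in Prdx1 (chr4:116685349-116685648, +) and 134 in Gclm (chr3:122245307-122245606, +).
Prdx1: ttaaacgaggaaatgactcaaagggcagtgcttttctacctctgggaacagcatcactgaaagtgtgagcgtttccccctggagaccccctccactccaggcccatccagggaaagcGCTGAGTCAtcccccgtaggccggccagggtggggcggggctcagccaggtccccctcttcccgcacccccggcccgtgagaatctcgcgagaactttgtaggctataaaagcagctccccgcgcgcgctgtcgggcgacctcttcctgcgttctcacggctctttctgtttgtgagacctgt
Gclm: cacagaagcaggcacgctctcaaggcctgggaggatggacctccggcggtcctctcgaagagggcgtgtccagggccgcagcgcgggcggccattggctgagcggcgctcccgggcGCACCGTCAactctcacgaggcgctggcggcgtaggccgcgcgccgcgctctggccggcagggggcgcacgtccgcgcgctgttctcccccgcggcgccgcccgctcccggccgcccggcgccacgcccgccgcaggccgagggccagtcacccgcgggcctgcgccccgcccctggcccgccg
Over the oocytes Prdx1 and Gclm had r = -0.37 after removing genotype means, and shared regulation was not tested. The match is a description of the letters and no factor's binding was measured.

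Depth was similar across the oocytes, from 20441302 to 33341039 reads per library, so that 3 reads stood for 0.0900 to 0.147 RPM. Amh had 0 reads in the transgenic and 1 read in the wild-type oocytes, and Thy1 had 7 and 0, which cannot check the labels of an egg. The 12 oocyte markers were all present, with a sum of 21019 to 36261 RPM. Markers of the surrounding cells were low: 21 of 22 cumulus and granulosa markers had a mean under 1 RPM. Without Serpine2, which was abundant in every oocyte, their sum ran from 0.0972 to 3.38 RPM in transgenic and from 0.342 to 46.1 RPM in wild-type oocytes (exact permutation test of the females, p = 0.229, 0.229 after adjustment over 3 properties). Of 8 red blood cell markers 6 had no read in any oocyte, and the sum was at most 0.813 RPM. Of 8 macrophage and immune markers 5 had a mean under 1 RPM. The sum of this list ran from 12.4 to 24.7 RPM in transgenic and from 11.6 to 31.1 RPM in wild-type oocytes. The 6 oviduct epithelium markers summed to 0.366 to 7.25 RPM in transgenic and 2.79 to 5.53 RPM in wild-type oocytes. Listed genes took 93.4% ± 0.846 of the reads in transgenic females, against 92.5% ± 0.609 in wild-type females (exact permutation p = 0.143, adjusted 0.214). The part of these properties in the differences above was not tested.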

How the data were processed

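RNA of single denuded oocytes was amplified with SMART-Seq v4 and made into libraries with ThruPLEX, per the labels' protocols. HISAT2, Trim Galore and FastQC, and the builds GRCm39 and mm39, come from the submitters' processing notes. For the counting tool and its use of strand the sources used here give nothing. The deposited coordinates are those of GRCm38: 99.7% of 25035 matched IDs overlapped their GENCODE M21 gene. The authors deposited log2 values. Though named RPKM, they are log2 RPM, undivided by length, and genes with no read were set to 0.9 reads. Whole reads were recovered (256342 values below 2000 reads, 100% within 0.02 of a whole number).

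The labels list 24 samples. Transgenic oocyte A of lane 1 and the water library are not analysed here. Oocytes of a female were averaged as log2(RPM + 1), a scale that understates changes of low genes. Genes averaging 1 RPM or more were fitted with limma 3.58.1 in R 4.3.3 (eBayes with trend, two-sided, Benjamini-Hochberg, threshold 0.05), with 4 females per genotype. For 2 of the 4 transgenic females, those of lanes 1 and 2, the animal number in the title differs from one in the library name, and title, letter and lane give the same grouping. The labels do not say whether the females were litter mates. Lanes pair the females by the labels, and lane mates' deviations correlated at -0.04, 0.08, 0.34 and 0.32. The median for pairs from different lanes was -0.05, and the main fit does not use the pairing. Lengths come from GENCODE M21 principal transcripts. The genes, lists and rules were chosen with earlier results of these data known. From each wider list up to 3 genes with the smallest p are named, and for Nudt1, Prdx2 and Gsr the 3 genes of highest correlation, leaving out symbols of predicted genes. Alternatives were the lane block, pseudocount, filter, scaling, averaging, single oocytes, voom, leaving out each female, and the transcript length, of which the last, and leaving out females for the wider lists, were chosen after seeing the data.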

Additional observations from a re-analysis of the deposited data

Results flagged for a closer look

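Of 30 groups of values examined for a sample far from the rest, 2 met the limit, where chance gives about 1 in 20. For each gene the groups were the female means of each genotype and the single transgenic oocytes. Single wild-type oocytes were not examined in this way, so the flags do not compare the genotypes. For Prdx1, oocyte C of the transgenic female of lane 1 was at 725 RPM, and its gap to the nearest of the 10 transgenic oocytes was 0.554 of their range (limit 0.466). For Prdx6, oocyte C of the transgenic female of lane 3 was at 4.13 RPM, with a gap of 0.550 of the range.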

How the results depend on the processing

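The count of genes past the adjusted test was 0 in the analysis as reported and in every alternative run except 2. It was 12 with single oocytes (random effect of the female, replicate block for lane), and leaving out 1 female at a time it ran from 0 to 1, with 1 when the transgenic female of lane 1 was left out. With the replicate block (lane) on female means it was 0 (lowest adjusted p 0.447; 1028 genes had p under 0.05 before adjustment), and the paired fit changed no call. None of the 10 genes other than Gclc and Gclm changed direction. Gclc reversed to 0.0154 with median-ratio scaling, 0.0542 with single oocytes and the replicate block, and 0.00345 with voom, and leaving out 1 female it ran from -0.177 to 0.171. Gclm ran from -0.306 to 0.169 in the same way, reversed without the transgenic female of lane 2. Nudt1 was at -0.58 with a pseudocount of 5. Adjusted p ran from 0.112 to 0.999 for Txn1, 0.134 to 0.999 for Prdx2 and 0.189 to 0.999 for Gsr. The median of all genes stayed near 0 in each scaling.

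The order of levels depended on length. In RPM without length, Gclm stood at place 4, Txn1 5, Gclc 7, Nudt1 8, Gsr 9 and Prdx3 10. With merged exons Nudt1 was at 6 and Prdx6 at 7. With the shortest principal transcript Gclm was at 3, Prdx5 4, Txn1 5, Nudt1 6 and Prdx6 7. Gsr and Prdx3 have no value at a filter of 5 RPM. Precision rests on 4 females a group, and for Gsr and Prdx3 also on few reads.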
